A study of Mus musculus with 18 samples.

Results

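Epididymal fat, the visceral white depot beside the testis, was compared between its floating adipocytes and its stromal-vascular fraction (SVF). The comparison used 6 of the 18 arrays of the series, chosen by title: 3 of visceral adipocytes and 3 of visceral SVF. The groups were epididymal adipocytes (n = 3) and epididymal SVF (n = 3), from young adult male mice of the C57BL/6 strain, described as biological replicates with no treatment or mutant allele. All fat was digested with collagenase, the adipocytes that floated after centrifugation were filtered, and the pellet was freed of erythrocytes by lysis and filtered to give the SVF. Neither fraction was sorted, so each holds whatever floated or sank, and whether a replicate is 1 mouse or a pool is not given in the sources used here. The series holds the same fractions of inguinal and interscapular brown fat, 3 arrays each, and RNA was read on Agilent single-colour mouse arrays, which measure 1 labelled sample by the brightness of probes for each gene. The design asks which genes separate the fractions of this depot.

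White adipocytes store triglyceride in a single large droplet coated by perilipins, build it from glucose and fatty acids under insulin, and break it down through a lipase cascade that adrenergic receptors start and insulin stops. They also secrete hormones, among them adiponectin and leptin. The SVF holds fibroblast-like progenitors, endothelial and mural cells of the vessels, macrophages and other immune cells. Visceral depots carry in addition a covering of mesothelium, the cell layer in which the transcription factor Wt1 is made.

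Promoter sequences of 5 genes the comparison turns on are printed here: 4 genes of the adipocyte side, namely Adipoq (adiponectin), Lep (leptin), Plin1 (perilipin 1, the coat of the lipid droplet) and Sncg (gamma-synuclein, a small neuronal protein that white adipocytes also make), and Pdgfra, the receptor that marks progenitors, from the SVF side. Each is the 250 bases before the start site, 5′ to 3′, from RefSeq on build GRCm38.p6: Adipoq at chr16:23146286-23146535, plus strand, Lep at chr6:29059971-29060220, plus strand, Plin1 at chr7:79732777-79733026, minus strand, Sncg at chr14:34374670-34374919, minus strand, and Pdgfra at chr5:75152001-75152250, plus strand. Capitals mark matches, on either strand, to AGGTCA (the core bound by nuclear receptors such as PPARγ), TTGCNNAA (C/EBP factors) or CCCNNGGG (EBF factors).
Adipoq: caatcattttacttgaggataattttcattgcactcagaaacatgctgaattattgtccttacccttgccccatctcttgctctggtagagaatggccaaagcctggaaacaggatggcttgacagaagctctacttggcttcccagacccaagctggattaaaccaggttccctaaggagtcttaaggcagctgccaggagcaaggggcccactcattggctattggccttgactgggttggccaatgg
Lep: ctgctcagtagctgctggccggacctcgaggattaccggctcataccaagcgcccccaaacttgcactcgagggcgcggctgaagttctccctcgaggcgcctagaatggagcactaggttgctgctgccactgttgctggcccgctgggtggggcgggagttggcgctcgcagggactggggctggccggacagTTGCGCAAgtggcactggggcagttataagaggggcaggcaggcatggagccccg
Plin1: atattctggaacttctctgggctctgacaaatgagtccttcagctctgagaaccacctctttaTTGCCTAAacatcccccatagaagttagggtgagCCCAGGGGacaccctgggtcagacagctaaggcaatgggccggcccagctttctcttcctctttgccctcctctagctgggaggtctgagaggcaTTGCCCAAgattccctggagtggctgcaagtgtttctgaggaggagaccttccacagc
Sncg: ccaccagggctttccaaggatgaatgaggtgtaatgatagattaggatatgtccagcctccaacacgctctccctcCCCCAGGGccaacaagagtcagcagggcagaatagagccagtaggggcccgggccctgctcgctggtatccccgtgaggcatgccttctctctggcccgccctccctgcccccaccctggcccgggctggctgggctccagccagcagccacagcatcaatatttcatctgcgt
Pdgfra: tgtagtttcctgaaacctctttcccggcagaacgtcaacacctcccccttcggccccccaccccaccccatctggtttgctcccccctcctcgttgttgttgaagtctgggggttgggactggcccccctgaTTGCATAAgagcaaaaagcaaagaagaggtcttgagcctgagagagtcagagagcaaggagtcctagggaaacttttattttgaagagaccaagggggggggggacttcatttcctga
Lep held TTGCNNAA 55 bases before its start, Plin1 held it 187 and 58 bases before and CCCNNGGG 153 bases before, Sncg held CCCNNGGG 174 bases before, and Pdgfra held TTGCNNAA 118 bases before. None of the motifs was in the Adipoq window. Among windows of genes higher in adipocytes (2052), 14.6% held AGGTCA, 9.36% TTGCNNAA and 13.7% CCCNNGGG, and among genes lower in adipocytes (926) the shares were 10.0%, 7.78% and 15%. Over the windows of the genes tested (12244) they were 11.3%, 7.96% and 15.2%, and 14.0%, 9.56% and 11.8% over all 32851 windows of RefSeq. These shares were not tested against one another. A window was found for 104 of the 139 genes named by rule in the text. A match describes the letters of the window and is not a bound site.

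Values are log2 processed signals relative to the 75th percentile of their array, so 0 is that percentile and a difference of 1 is a 2-fold difference. Differences are adipocytes minus SVF, with 3 arrays per group. The ± is the standard error from the limma fit to the arrays of all depots, not the spread of the epididymal arrays alone. It can be larger or smaller than a standard error from the epididymal arrays alone (0.85 against 0.18 for Aox3, 0.78 against 1.07 for Onecut3). P-values are from limma, adjusted over all 19291 genes tested, with a threshold of 0.05. A gene past this threshold is said to be higher or lower in adipocytes, or called. The 75th percentile signal was 416 to 900 on the adipocyte arrays and 945 to 1259 on the SVF arrays, and 62.8 to 87.9% and 66.2 to 72.3% of spots were well above background. Adipocyte replicate 1 had the 87.9%, and 1131 genes at least 2-fold above the other adipocyte arrays, while replicate 2 had 2794 genes at least 2-fold below the others. All adipocyte arrays were read with Feature Extraction 9.5.3.1 on a G2505B scanner and all SVF arrays with version 10.5.1.1 on a G2505C, and no slide or scan day held both fractions, so software, scanner, slide and scan day cannot be told apart from the fraction. The number of arrays limits the precision.

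The markers given for the depot bore out the fraction labels for adipocytes. Adipoq had 8.17, 8.15 and 8.25 on the adipocyte arrays, against 4.30, 4.41 and 2.85 on the SVF arrays (4.34 ± 0.84, adjusted p = 0.00294). Lep had 2.03, 3.50 and 3.50 on the adipocyte arrays, against -2.74, -2.40 and -4.23 on the SVF arrays (6.13 ± 0.85, adjusted p = 0.000712). In each the groups did not overlap, the adipocyte arrays lay close together for Adipoq, and SVF replicate 3 was the lowest. Wt1 had -0.55, -0.13 and -0.15 on the adipocyte arrays, against 1.23, 1.7 and 2.21 on the SVF arrays (-1.99 ± 2.11, adjusted p = 0.525). Its groups did not overlap either and SVF was the higher, but the call depended on the fit: with only the 6 epididymal arrays, which drop the spread of Wt1 in the other depots, its adjusted p was 0.0102, and without inguinal SVF replicate 1 it was 0.0023. The adipocyte markers were also read in the SVF, where the summed signal of 24 of them was 922, 856 and 559 times the 75th percentile. In adipocytes the sum was 3528, 3379 and 4332. Such a sum is carried by its brightest members. For 22 genes of triglyceride synthesis and storage it was 138, 148 and 65.6 in SVF, against 1406, 1360 and 1681 in adipocytes. Which cells of the SVF gave this signal was not tested. In bulk samples like these, fewer cells of a type and less RNA per cell cannot be told apart.

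Of the 19291 genes, 4838 (25.1%) were called: 3508 were higher in adipocytes (18.2%) and 1330 lower (6.89%), with a median difference over all genes of 0.07. At an unadjusted p under 0.05, 7309 genes passed. The groups did not overlap for 9484 genes, 4406 of the called genes among them. Differences over 2-fold were found for 3314 of the higher and 904 of the lower genes, and over 16-fold for 215 and 8. Of the higher genes, 65.6% were well above background on all 6 arrays, as were 86.8% of the lower genes and 81.9% of all genes tested. The split of 72.5% higher among the called genes moved with the scaling of the arrays: it was 53.1% (2950 higher, 2606 lower) after quantile normalization, 54.3% (2987 and 2518) in the deposited matrix and 37.5% (2414 and 4024) after scaling to the array median, with all-gene medians of -0.12, -0.09 and -0.43. It was 61.3% (3107 and 1961) from the 6 epididymal arrays alone, and 60.5% (1531 and 999) among genes above background on all 18 arrays.

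Single arrays moved the number of calls. Leaving out adipocyte replicate 1 gave 2333 called genes, adipocyte replicate 2 gave 4653 and adipocyte replicate 3 gave 3041, while leaving out SVF replicate 1, 2 or 3 gave 4005, 2621 and 3302. Without adipocyte replicate 3, 2966 of the 4838 genes were still called, and none of the 4838 changed sign. A total of 2047 genes were called in every such fit. With normexp background correction 1613 genes were called (1093 higher, 520 lower), 1568 of them shared with the 4838.

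**Figure D1:**
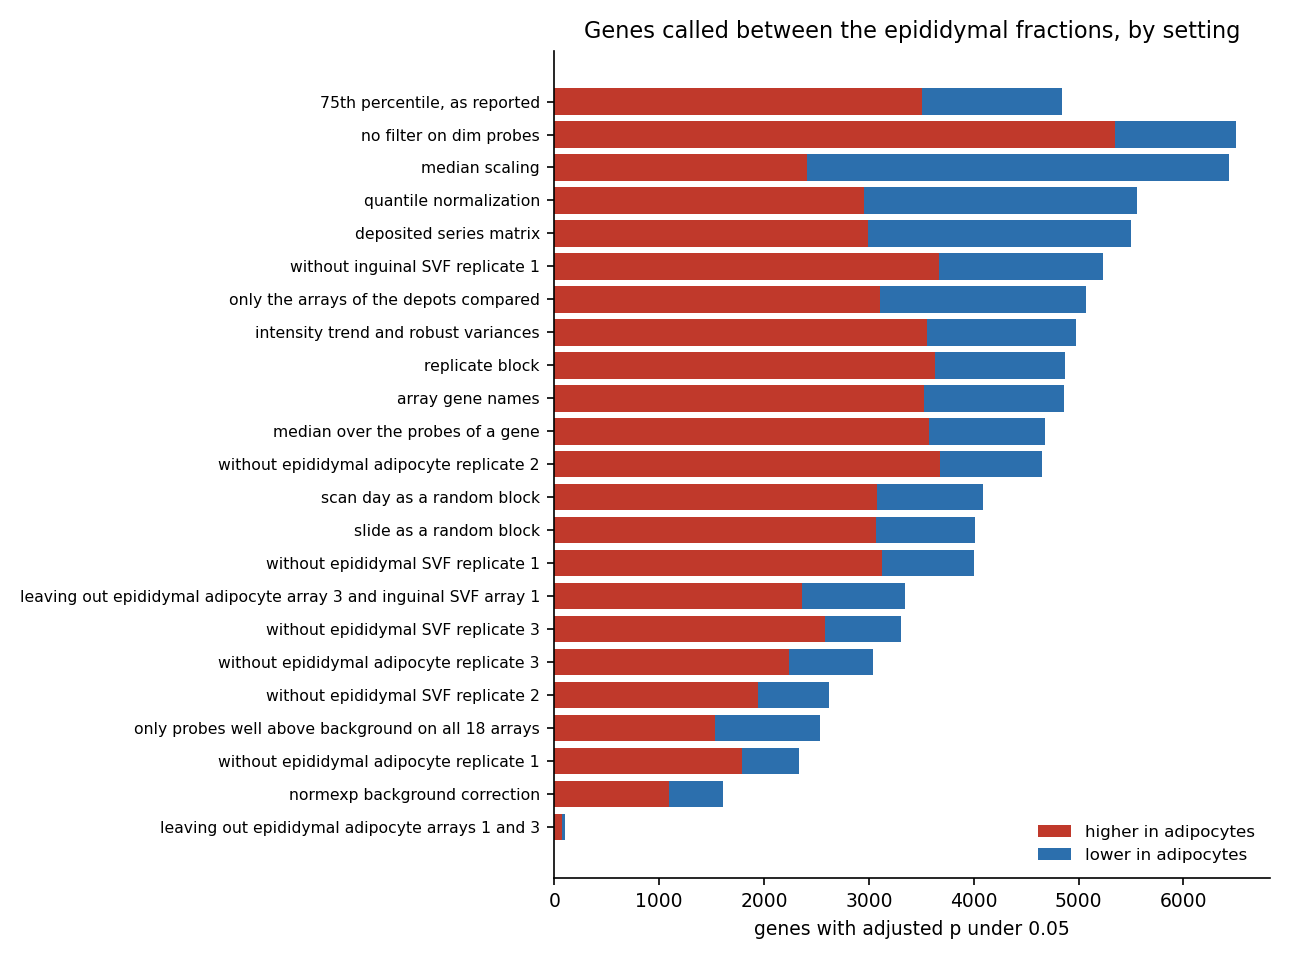
Number of genes called higher (red) or lower (blue) in epididymal adipocytes than in SVF, at an adjusted p under 0.05, under each processing setting, with the reported setting first. The reported 3508 higher and 1330 lower genes change to 2414 and 4024 under median scaling and to 1093 and 520 under normexp correction.

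Among genes higher in adipocytes and well above background on some SVF array, those with the widest gap between single arrays were mostly not adipokines. Lctl, a klotho-related protein, had 0.53, 0.70 and 1.68 on the adipocyte arrays, against -5.67, -5.14 and -5.69 on the SVF arrays (6.47 ± 0.63, adjusted p = 4.50e-05). Tmem45b had 3.98, 3.95 and 4.16 on the adipocyte arrays, against -2.55, -1.46 and -2.50 on the SVF arrays (6.2 ± 0.73, adjusted p = 0.000221). The lowest adipocyte array stood far above the highest SVF array in each, though Lctl was well above background on only 1 of the SVF arrays. Syt6, a synaptotagmin, had 3.14, 0.08 and 1.54 on the adipocyte arrays, against -4.83, -5.14 and -4.88 on the SVF arrays (6.54 ± 1.62, adjusted p = 0.0102). Its adipocyte arrays were spread widely, and the adjusted p was 0.0532 without adipocyte replicate 1. Crtac1, a secreted matrix protein of cartilage, had 1.43, 1.69 and 2.98 on the adipocyte arrays, against -3.39, -3.70 and -4.30 on the SVF arrays (5.83 ± 1.07, adjusted p = 0.00241). Both groups were tight relative to the gap.

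Nnat (neuronatin, an imprinted membrane proteolipid) had 4.02, 4.23 and 3.47 on the adipocyte arrays, against -0.92, -1.06 and -1.28 on the SVF arrays (5.00 ± 0.49, adjusted p = 4.50e-05). Myh14, a non-muscle myosin heavy chain, had 2.27, 1.87 and 2.66 on the adipocyte arrays, against -2.56, -2.66 and -2.94 on the SVF arrays (4.99 ± 0.44, adjusted p = 2.34e-05). Sncg had 4.75, 4.96 and 5.27 on the adipocyte arrays, against 0.51, 0.08 and -0.18 on the SVF arrays (4.86 ± 0.37, adjusted p = 7.15e-06). These 3 genes were even within each group, and SVF replicate 3 was the lowest array for each. Among the 12 genes ranked first by this gap, 4 more were Apol6 (5.14 ± 0.78, adjusted p = 0.00112), Snhg11, a non-coding snoRNA host (5.36 ± 1.1, adjusted p = 0.00383), Wfdc21, a whey acidic protein family member (5.05 ± 0.90, adjusted p = 0.00212), and Plin4, a droplet coat protein (5.02 ± 0.54, adjusted p = 0.000121). Their lowest adipocyte arrays read 6.46, 0.17, 2.68 and 8.48, against highest SVF arrays of 1.99, -4.39, -1.80 and 4.09. Lep was also among them, as was the muscle actin Acta1, described with the muscle markers.

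Genes with no SVF array well above background have only a lower bound, computed as the adipocyte mean against, on each SVF array, the higher of the gene's own signal and the dimmest signal well above background. Acot6, an acyl-CoA thioesterase, was at least 67.4-fold higher in adipocytes, with 2.48, -1.39 and 0.29 on the adipocyte arrays and a measured mean of -6.08 on the SVF arrays (adjusted p = 0.00676). Trim67, of the TRIM ubiquitin ligase family, was at least 31.1-fold higher, with -0.46, -1.37 and -0.12 against a measured -7.88 (adjusted p = 1.92e-05). Klf14, a Krüppel-like transcription factor, was at least 19.5-fold higher, with -2.11, -0.76 and -1.1 against -7.16 (adjusted p = 2.92e-05). Acot6 was spread more widely among the adipocyte arrays than Trim67. Prr32 (at least 16.8-fold), Cdsn, the skin adhesion protein corneodesmosin (at least 15.6-fold), and Onecut3, a transcription factor (at least 13.6-fold), followed, and Onecut3 had an adjusted p of 0.0507 after normexp correction.

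**Figure D2:**
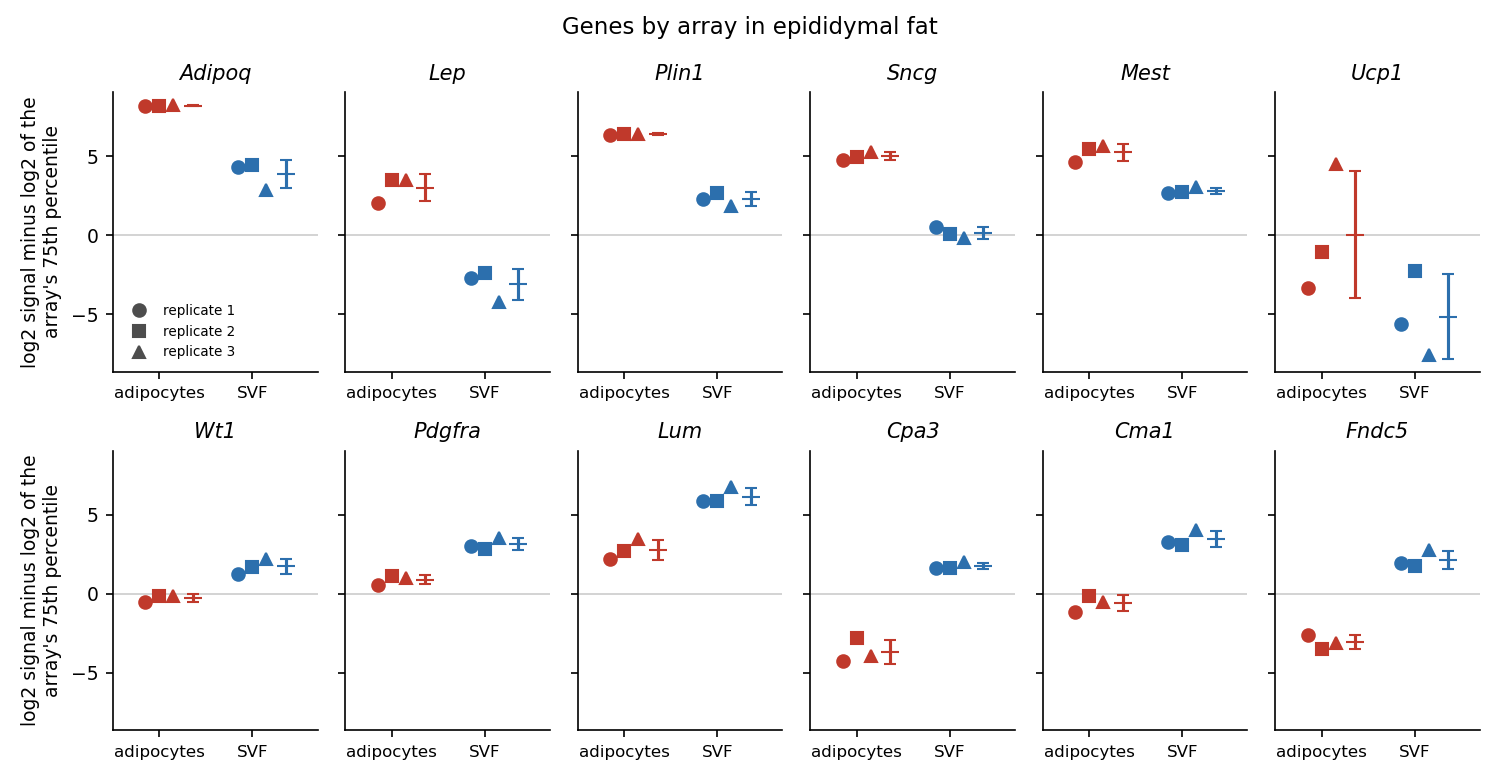
Log2 signal relative to the array's 75th percentile for 12 genes on each epididymal array, adipocytes left and SVF right, with circles, squares and triangles for replicates 1, 2 and 3 and bars for the mean ± SD (n = 3 each). Sncg, Lep and Adipoq are high on all 3 adipocyte arrays, Cpa3, Cma1 and Fndc5 on all 3 SVF arrays, and Ucp1 runs from -3.35 to 4.51 within adipocytes.

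Most mature adipocyte markers were higher in adipocytes. Of 24 mature adipocyte markers 21 were higher and none lower, against 18.2% and 6.89% of all genes. The median difference was 3.30 against 0.07 over all genes, and 17 were called in each fit that left out 1 of the 6 arrays. Counts in the lists below are to be read against the same shares. Besides the genes above, Nrg4, a secreted growth factor of adipocytes, had 3.1, 2.94 and 2.65 on the adipocyte arrays, against -1.11, -0.91 and -3.49 on the SVF arrays (4.74 ± 0.92, adjusted p = 0.003). Adig (adipogenin) had -0.46, -0.83 and -0.89 on the adipocyte arrays, against -5.11, -5.06 and -6.15 on the SVF arrays (4.71 ± 0.59, adjusted p = 0.000354). SVF replicate 3 was again the lowest array for each, and Adig was well above background on 2 SVF arrays. The 3 markers not called were the master regulator Pparg (0.69 ± 0.47, adjusted p = 0.304), the fatty acid carrier Cd36 (0.63 ± 0.31, adjusted p = 0.151) and the glycerol channel Aqp7 (0.35 ± 0.40, adjusted p = 0.559). Pparg had 5.57, 5.24 and 4.76 in adipocytes and 4.98, 4.94 and 3.58 in SVF, and the groups overlapped, whereas its partner Cebpa had 3.55, 4.10 and 2.99 in adipocytes and 1.56, 1.55 and 1.64 in SVF (1.97 ± 0.50, adjusted p = 0.0116). Cfd (adipsin, complement factor D) differed by 2.48 ± 0.81 (adjusted p = 0.0369), and that call was lost with the replicate numbers as a block (adjusted p = 0.0644) and on leaving out single arrays (up to 0.156 without adipocyte replicate 1, 2 or 3 or SVF replicate 2 or 3).

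Triglyceride synthesis and storage followed the same direction, with 19 of 22 genes higher, 1 lower and a median of 2.91; the list shares Plin1, Plin4, Cidec, Gpd1 and Pck1 with the adipocyte markers. Mogat1, which makes diacylglycerol from monoacylglycerol, had 2.54, 2.13 and 1.97 on the adipocyte arrays, against -2.17, -1.86 and -3.48 on the SVF arrays (4.71 ± 0.77, adjusted p = 0.0015). Plin1 had 6.35, 6.42 and 6.4 on the adipocyte arrays, against 2.31, 2.68 and 1.85 on the SVF arrays (4.11 ± 0.78, adjusted p = 0.00279). The adipocyte arrays of Plin1 lay within 0.07 of one another. Lpin3, a phosphatidate phosphatase, was the gene that was lower (-1.21 ± 0.34, adjusted p = 0.0197; up to 0.0918 without adipocyte replicate 3 or SVF replicate 2 and 0.102 after normexp correction), with its relative Lpin1 higher (2.80 ± 0.62, adjusted p = 0.00553) and Lpin2 not called (-0.43 ± 0.21, adjusted p = 0.141). Of 16 lipolysis genes 9 were higher and 1 lower, against 18.2% and 6.89% of all genes (median 1.64). Prkar2b, a regulatory subunit of protein kinase A, had 6.26, 6.39 and 6.82 on the adipocyte arrays, against 2.54, 2.96 and 2.21 on the SVF arrays (3.92 ± 0.53, adjusted p = 0.00057). Pde3b, the phosphodiesterase through which insulin restrains lipolysis, had 1.6, 1.80 and 0.21 on the adipocyte arrays, against -2.58, -2.18 and -2.89 on the SVF arrays (3.75 ± 0.60, adjusted p = 0.00144). Hormone-sensitive lipase, Lipe (2.63 ± 0.52, adjusted p = 0.00319), was also higher, and the β3-adrenergic receptor Adrb3 differed by 3.38 ± 0.61 (adjusted p = 0.00218) while well above background on 1 of the 3 SVF arrays.

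Fatty acid synthesis was less uniform: 5 of 16 genes were higher and 1 lower, against 18.2% and 6.89% of all genes, with a median of 1.66. Scd1, the stearoyl-CoA desaturase of fat and liver, had 8.49, 8.47 and 8.66 on the adipocyte arrays, against 4.02, 4.51 and 3.43 on the SVF arrays (4.55 ± 0.43, adjusted p = 4.13e-05). Its relative Scd2 had 1.37, 1.44 and 2.23 on the adipocyte arrays, against 2.63, 2.69 and 2.79 on the SVF arrays (-1.02 ± 0.29, adjusted p = 0.018). The groups did not overlap for either paralog, and the adjusted p of Scd2 was up to 0.0894 without adipocyte replicate 1 or 2 or SVF replicate 2 or 3 and 0.0567 after normexp correction. After normexp correction 3 genes of the list were called, all higher, and with only the epididymal arrays 9 were higher and 1 lower. Acacb, the acetyl-CoA carboxylase of the mitochondrial surface (2.42 ± 0.47, adjusted p = 0.00306), Mlxipl, the glucose-sensing factor ChREBP (3.06 ± 0.78, adjusted p = 0.0114; up to 0.0543 without adipocyte replicate 1 or SVF replicate 3), and Pnpla3 (3.31 ± 0.82, adjusted p = 0.00995; 0.0546 without adipocyte replicate 1, 0.069 after normexp correction) were higher. Scd3 was at least 4.45-fold higher (adjusted p = 0.00887, 0.204 after normexp correction). The core enzymes Fasn (1.85 ± 0.74, adjusted p = 0.0793) and Acaca (1.71 ± 0.71, adjusted p = 0.0905) did not pass, nor did Acly (-0.35 ± 0.44, adjusted p = 0.591).

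Breakdown of branched-chain amino acids, a fuel and carbon source of white fat, had 14 of 22 genes higher, none lower and a median of 1.46, and all 22 differences were above 0, as were 10287 of all 19291 genes. Bckdhb, a subunit of the branched-chain ketoacid dehydrogenase, had 3.29, 3.02 and 2.64 on the adipocyte arrays, against 0.07, 0.33 and -0.24 on the SVF arrays (2.93 ± 0.56, adjusted p = 0.00284). Hibch, an enzyme of the valine branch, had 5.11, 4.88 and 4.67 on the adipocyte arrays, against 2.34, 2.43 and 1.71 on the SVF arrays (2.73 ± 0.51, adjusted p = 0.00268). Ivd, an enzyme of the leucine branch, had 4.08, 4.22 and 3.93 on the adipocyte arrays, against 1.94, 1.91 and 1.67 on the SVF arrays (2.24 ± 0.41, adjusted p = 0.00232). All 3 were even within groups. Aldh6a1 (2.79 ± 0.55, adjusted p = 0.00325) and Mccc2 (2.63 ± 0.61, adjusted p = 0.00734) completed the 5 largest. Under median scaling, and after normexp correction, 9 of the 22 genes were higher. Bckdk, the kinase that turns the dehydrogenase off, was at 0.19 ± 0.32, adjusted p = 0.71.

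In insulin signalling and glucose uptake 9 of 20 genes were higher and 1 lower, against 18.2% and 6.89% of all genes (median 0.72, or 0.22 under median scaling). Grb14, an adaptor that binds the insulin receptor, had 1.06, 0.78 and 0.82 on the adipocyte arrays, against -2.71, -2.45 and -1.88 on the SVF arrays (3.24 ± 0.60, adjusted p = 0.00261). Hk2 (hexokinase 2, 2.44 ± 0.49, adjusted p = 0.00339), the insulin-regulated glucose transporter Slc2a4 (2.40 ± 0.48, adjusted p = 0.00341) and its trafficking partner Trarg1 (2.72 ± 0.52, adjusted p = 0.00285) were higher. The kinase paralogs differed in direction, with Akt2 higher (1.22 ± 0.36, adjusted p = 0.0245; 0.0639 with the replicate block, up to 0.101 without adipocyte replicate 1 or 2 or SVF replicate 1 or 2 and 0.109 after normexp correction) and Akt1 lower (-0.88 ± 0.25, adjusted p = 0.021; up to 0.114 without adipocyte replicate 1 or SVF replicate 1, 2 or 3, 0.0948 after normexp correction and 0.0513 with only the arrays of the depots compared). Of 22 receptors for hormones and metabolites 13 were higher and 1 lower, against the same shares of all genes (median 1.91). Tshr, the thyrotropin receptor, had 0.57, 0.77 and -0.45 on the adipocyte arrays, against -4.34, -4.14 and -5.30 on the SVF arrays (4.89 ± 0.73, adjusted p = 0.000964). Oxtr, the oxytocin receptor, had -2.78, -2.36 and -2.79 on the adipocyte arrays, against -7.91, -8.02 and -5.36 on the SVF arrays (4.45 ± 0.77, adjusted p = 0.0019). It was well above background on 1 SVF array, and replicate 3 was the highest of them. Ghr, the growth hormone receptor, had 6.17, 6.18 and 5.23 on the adipocyte arrays, against 2.40, 2.55 and 2.41 on the SVF arrays (3.41 ± 0.56, adjusted p = 0.00157). Klb, the FGF21 co-receptor, differed by 5.31 ± 0.73 (adjusted p = 0.000654), and Npr1, a natriuretic peptide receptor, was the only receptor that was lower (-1.32 ± 0.37, adjusted p = 0.018; up to 0.0693 without adipocyte replicate 1 or 3 or SVF replicate 1 and 0.208 after normexp correction).

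Of 34 respiratory chain and ATP synthase genes 14 were higher and none lower, against 18.2% and 6.89% of all genes. The median was 0.83 and all 34 differences were above 0. Ndufb8, of complex I, had 5.85, 5.57 and 5.91 on the adipocyte arrays, against 3.90, 4.08 and 4.52 on the SVF arrays (1.61 ± 0.36, adjusted p = 0.00589). Ndufa4 had 5.78, 5.40 and 5.79 in adipocytes and 4.04, 4.05 and 4.30 in SVF (1.53 ± 0.32, adjusted p = 0.00464). Cox4i1, of cytochrome oxidase, had 7.09, 6.59 and 7.04 in adipocytes and 5.16, 5.24 and 6.00 in SVF (1.44 ± 0.38, adjusted p = 0.013), and its adjusted p was up to 0.0562 without adipocyte replicate 1 or SVF replicate 2. In these 3 the groups did not overlap and SVF replicate 3 was the highest SVF array. The count was 2 after normexp correction, 2 after median scaling and 6 without adipocyte replicate 3, and 4 genes were called in every fit without 1 array. It was 13 after quantile normalization, 17 in the deposited matrix and 23 with only the epididymal arrays. Cox5b (1.37 ± 0.36, adjusted p = 0.0141) was lost on leaving out single arrays (up to 0.0568 without adipocyte replicate 1 or 3 or SVF replicate 2), and Cox6b1 (1.11 ± 0.33, adjusted p = 0.0252) likewise (up to 0.0856 without adipocyte replicate 1 or 3 or SVF replicate 1 or 3) and with the replicate block (adjusted p = 0.0724).

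Of 24 cytosolic ribosome genes none was higher and 1 lower, Rpl3 (-0.66 ± 0.23, adjusted p = 0.0487; 0.116 with the replicate block and up to 0.148 without adipocyte replicate 1 or 3 or SVF replicate 1, 2 or 3), with a median of -0.22. Their lower count was 0 after normexp correction, 4 after quantile normalization and 8 in the deposited matrix. Of 20 cell cycle genes 4 were lower, against 6.89% of all genes, with a median of -1.09 and all 20 below 0. Bub1b, a spindle checkpoint kinase, had -2.79, -3.07 and -3.44 on the adipocyte arrays, against -1.74, -1.56 and -0.87 on the SVF arrays (-1.71 ± 0.38, adjusted p = 0.00591). Cdk1 (-1.50 ± 0.39, adjusted p = 0.0124; up to 0.0554 without adipocyte replicate 1 or SVF replicate 3), the replication helicase subunit Mcm6 (-1.15 ± 0.33, adjusted p = 0.0207; 0.0748 with the block and up to 0.07 without adipocyte replicate 1 or 2 or SVF replicate 2 or 3) and Tyms, thymidylate synthase (-1.1 ± 0.27, adjusted p = 0.00845), were the others. The number of lower cell cycle genes was 2 after normexp correction, 8 after quantile normalization and 10 under median scaling. A second Tyms probe read 1.31, the opposite sign. Of the others in this list Mki67 was at -0.95 ± 0.56, adjusted p = 0.231.

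Of 20 immediate early genes, which the handling of cells can induce, 1 was called and all 20 differences were above 0 (median 0.74, or 0.245 under median scaling). With only the epididymal arrays 5 were called, and after normexp correction 0. Ier2 had 5.59, 5.49 and 5.45 on the adipocyte arrays, against 3.85, 3.95 and 4.81 on the SVF arrays (1.30 ± 0.44, adjusted p = 0.0427), with an adjusted p of 0.0934 with the replicate block and up to 0.134 without adipocyte replicate 1, 2 or 3 or SVF replicate 1 or 2. Nr4a1 was at 1.27 ± 0.53, adjusted p = 0.0926, Egr1 at 1.13 ± 0.51, adjusted p = 0.115 and Fos at 0.84 ± 0.42, adjusted p = 0.157. Among 15 heat shock genes Hspd1, a mitochondrial chaperone, was higher (1.03 ± 0.28, adjusted p = 0.0163; up to 0.0746 without adipocyte replicate 1 or SVF replicate 2, and 0.103 after normexp correction), and the median of 0.09 was -0.41 under median scaling and -0.02 in the deposited matrix. Of 19 clock genes 1 was called higher, with a median of -0.22, and 0 were called after normexp correction or without adipocyte replicate 3. Dbp, an output gene of the clock, had 1.06, 2.69 and 2.40 in adipocytes and 4.43, 4.38 and 2.47 in SVF (-1.71 ± 0.82, adjusted p = 0.139), and SVF replicate 3 read like the adipocytes while the other SVF arrays were higher.

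**Figure D3:**
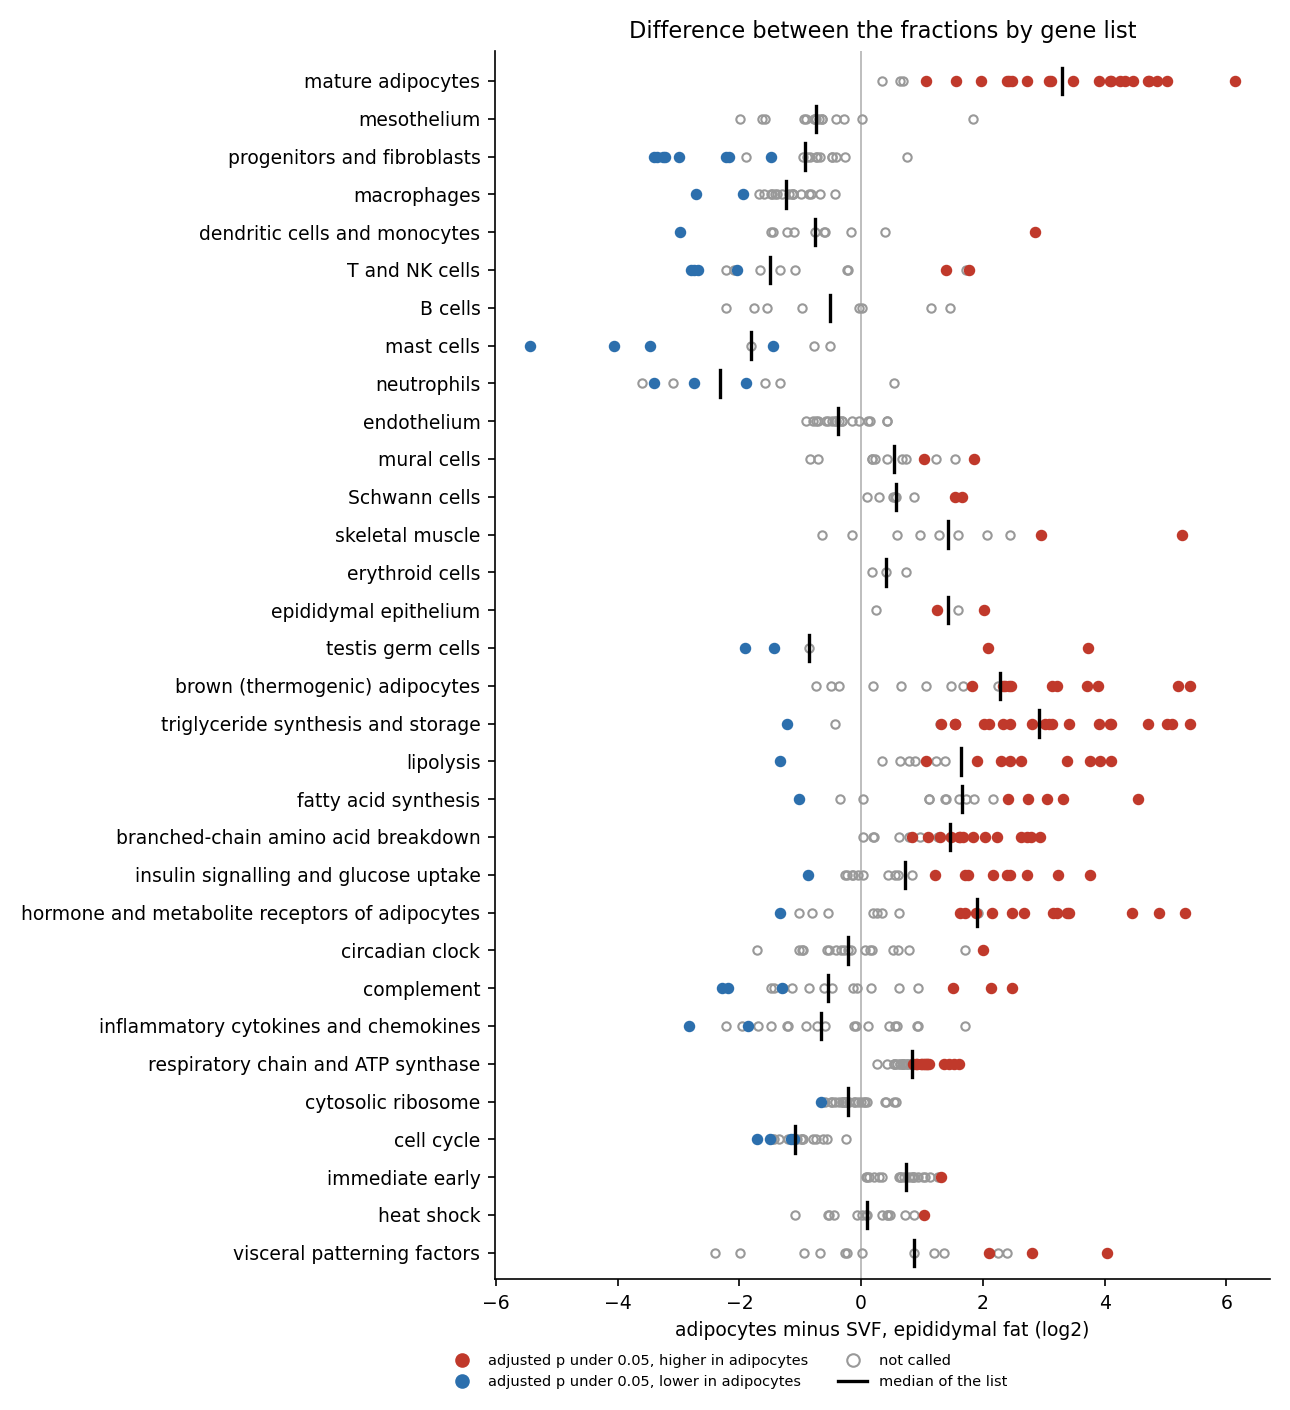
Adipocytes minus SVF difference (log2, horizontal axis) of every tested member of 32 gene lists, with red dots for members called higher in adipocytes, blue for called lower, open for not called, and a black bar at the list's median. The lists of adipocyte genes and triglyceride storage lie almost wholly to the right (medians 3.30 and 2.91), and those of mast cells and neutrophils lie to the left (-1.81 and -2.33).

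Mast cell genes were among those with the widest gaps on the SVF side. Cpa3, the carboxypeptidase of mast cell granules, had -4.29, -2.81 and -3.94 on the adipocyte arrays, against 1.65, 1.61 and 2.00 on the SVF arrays (-5.43 ± 0.98, adjusted p = 0.00228). Cma1, a chymase, had -1.15, -0.14 and -0.54 on the adipocyte arrays, against 3.25, 3.07 and 4.03 on the SVF arrays (-4.06 ± 0.81, adjusted p = 0.00341). Mcpt4, another mast cell protease, had -1.63, -0.58 and -1.6 on the adipocyte arrays, against 2.14, 1.87 and 2.59 on the SVF arrays (-3.47 ± 0.88, adjusted p = 0.0113). SVF replicate 3 was the highest array for each, and all adipocyte arrays of Cpa3 and Cma1 lay far below every SVF array. Hdc, which makes histamine, was lower in adipocytes too (-1.44 ± 0.31, adjusted p = 0.00528). Of 7 mast cell genes tested 4 were lower, none higher, with a median of -1.81, and those 4 were called in every fit without 1 array. Fcer1a (-0.51 ± 0.53, adjusted p = 0.515), Kit (-0.77 ± 0.47, adjusted p = 0.247) and Tpsb2 (-1.81 ± 0.67, adjusted p = 0.0584) were not called. The summed signal of the list was 2.74, 3.42 and 3.39 on the adipocyte arrays, against 22.5, 19.5 and 31.0 on the SVF arrays.

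Other genes lower in adipocytes by wide gaps had varied roles. Fndc5, the precursor of the secreted peptide irisin, had -2.63, -3.52 and -3.1 on the adipocyte arrays, against 1.92, 1.73 and 2.78 on the SVF arrays (-5.23 ± 0.81, adjusted p = 0.00124). Gdf10, a ligand of the TGF-β family, had -0.97, -0.29 and -0.24 on the adipocyte arrays, against 3.1, 3.06 and 3.38 on the SVF arrays (-3.68 ± 0.65, adjusted p = 0.00206). The groups lay well apart for each, with SVF replicate 3 the highest. Hpca (hippocalcin, a calcium sensor of neurons) had -4.42, -5.35 and -4.23 on the adipocyte arrays, against -0.56, -1.02 and -0.66 on the SVF arrays (-3.92 ± 0.53, adjusted p = 0.00057), with 1 adipocyte array well above background. Mmrn1, a matrix protein of platelets and lymphatic vessels, had -2.41, -1.22 and -1.25 on the adipocyte arrays, against 1.72, 2.74 and 1.66 on the SVF arrays (-3.67 ± 0.52, adjusted p = 0.00077). Ccl21c, a lymphatic chemokine with near-identical copies that the array may not separate, differed by -4.39 ± 1.17 (adjusted p = 0.0139; 0.0671 without adipocyte replicate 1).

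The remaining genes of this ranking were Dio3, the deiodinase that inactivates thyroid hormone (-4.04 ± 1.1, adjusted p = 0.0162; up to 0.0548 without adipocyte replicate 1 or SVF replicate 2), Xpnpep2, an aminopeptidase (-3.89 ± 0.69, adjusted p = 0.00212), Fyb2 (-3.58 ± 0.67, adjusted p = 0.00261), Art4, an ADP-ribosyltransferase (-3.47 ± 0.59, adjusted p = 0.00179), and Aox3, an aldehyde oxidase (-3.26 ± 0.85, adjusted p = 0.013). Their highest adipocyte arrays read -4.24, -3.39, -3.93, -4.23 and -2.61, and their lowest SVF arrays -0.72, -0.36, -0.76, -1.33 and 0.36. Where no adipocyte array was well above background, Ldhc, the lactate dehydrogenase of the testis, was at least 8.12-fold lower, with -1.43, -1.78 and -3.11 on the SVF arrays. Clec9a, a receptor of cross-presenting dendritic cells, was at least 4.96-fold lower, the natural killer receptor Klra1 at least 4.34-fold, Rtl3 at least 4.23-fold, tenomodulin (Tnmd) at least 3.67-fold and Gdpd2 at least 3.57-fold. After normexp correction these 6 were no longer called, with adjusted p from 0.0915 to 0.573.

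Of 20 progenitor and fibroblast genes 8 were lower in adipocytes and none higher, with a median of -0.92, and 4 were called in every fit without 1 array. Lum, the matrix proteoglycan lumican, had 2.21, 2.68 and 3.44 on the adipocyte arrays, against 5.84, 5.84 and 6.73 on the SVF arrays (-3.36 ± 0.61, adjusted p = 0.00237). Pdgfra had 0.55, 1.13 and 0.99 on the adipocyte arrays, against 3.01, 2.81 and 3.53 on the SVF arrays (-2.23 ± 0.59, adjusted p = 0.0142), with an adjusted p up to 0.0618 without adipocyte replicate 1 or SVF replicate 3. The adipocyte fraction was lowest in replicate 1 for Lum and Pdgfra, and SVF replicate 3 was the highest. Pi16 (-3.40 ± 0.72, adjusted p = 0.00519), Fbn1 (-3.25 ± 0.66, adjusted p = 0.00368), Mfap5 (-3.22 ± 0.79, adjusted p = 0.00942) and Col14a1 (-2.99 ± 0.88, adjusted p = 0.0223; up to 0.0974 without adipocyte replicate 1 or SVF replicate 3) are genes of matrix-producing progenitors. Dpp4, a marker of early progenitors, had -0.54, 0.36 and 0.69 in adipocytes and 1.24, 2.02 and 2.94 in SVF (-1.90 ± 0.91, adjusted p = 0.141), and passed with the replicate block (adjusted p = 0.031). The decorin gene Dcn was at -0.72 ± 0.50, adjusted p = 0.316. The summed signal of the list was 548, 598 and 942 in adipocytes and 868, 720 and 1009 in SVF, so it overlapped.

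Of 18 macrophage genes 2 were lower, against 6.89% of all genes, and none higher (median -1.24). Neither was called in every fit without 1 array, while 6 were lower under median scaling. Lyve1, a hyaluronan receptor of perivascular macrophages and lymphatics, had -0.89, 0.58 and 0.43 on the adipocyte arrays, against 1.89, 3.02 and 3.35 on the SVF arrays (-2.71 ± 0.71, adjusted p = 0.0135), with an adjusted p up to 0.0738 without adipocyte replicate 1 or SVF replicate 2 or 3. Csf1r, the receptor for macrophage growth factor, differed by -1.95 ± 0.62 (adjusted p = 0.0335; up to 0.155 without adipocyte replicate 1 or SVF replicate 2 or 3). Adgre1 (F4/80) had 1.19, 1.91 and 2.38 in adipocytes and 2.56, 3.29 and 4.01 in SVF (-1.46 ± 0.75, adjusted p = 0.166). Adipocyte replicate 1 was the lowest and SVF replicate 3 the highest array for all 3, and the summed signal of the list was 93.3, 171 and 224 in adipocytes, against 193, 266 and 405 in SVF. The pan-leukocyte gene Ptprc was at -1.74 ± 1.11, adjusted p = 0.271, with a second probe at 0.34.

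Of 8 neutrophil genes 3 were lower (median -2.33), or 5 after quantile normalization or median scaling and 1 after normexp correction (median -0.99). S100a9, a calcium-binding protein of granulocytes, had 0.67, -0.95 and 0.45 on the adipocyte arrays, against 4.64, 2.52 and 3.19 on the SVF arrays (-3.40 ± 0.91, adjusted p = 0.0145), with an adjusted p up to 0.0588 without adipocyte replicate 2 or SVF replicate 1. Retnlg (-2.75 ± 0.71, adjusted p = 0.0125; 0.0543 without SVF replicate 1) and Csf3r (-1.90 ± 0.43, adjusted p = 0.00663) were also lower. Of 14 T and natural killer cell genes 4 were lower and 2 higher, against 6.89% and 18.2% of all genes (median -1.49). After normexp correction 1 was lower and 0 higher (median -0.86). The 4 lower were killer cell genes. They were Ncr1 (-2.79 ± 0.79, adjusted p = 0.0186, up to 0.0748 without adipocyte replicate 2 or 3 or SVF replicate 3) and Klrb1c (-2.74 ± 0.59, adjusted p = 0.00518, with another probe at 0.23). The others were Gzma (-2.67 ± 0.78, adjusted p = 0.0214, up to 0.0912 without adipocyte replicate 1 or 2 or SVF replicate 3) and Gzmb (-2.04 ± 0.70, adjusted p = 0.045, 0.0586 with the replicate block and up to 0.178 without adipocyte replicate 1 or 2 or SVF replicate 1, 2 or 3). Cd4 (1.77 ± 0.44, adjusted p = 0.0102, up to 0.0504 without adipocyte replicate 1 or SVF replicate 2) was among the higher. Of 11 dendritic cell and monocyte genes Plac8 was lower (-2.98 ± 0.79, adjusted p = 0.0135; up to 0.0651 without adipocyte replicate 1 or SVF replicate 3) and Xcr1 higher (2.85 ± 0.87, adjusted p = 0.0267; up to 0.124 without adipocyte replicate 1 or 3 or SVF replicate 2 or 3), with a median of -0.76. None of 8 B cell genes was called (median -0.51). For Xcr1 and Cd4, adipocyte replicate 2 read below the other adipocyte arrays.

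Of 18 complement genes 3 were higher and 3 lower (median -0.55), against 18.2% higher and 6.89% lower over all genes. C4b (2.14 ± 0.49, adjusted p = 0.00704), Cd59a, which blocks the membrane attack complex (1.51 ± 0.33, adjusted p = 0.00539), and Cfd were higher. Serping1, the C1 inhibitor, had 2.69, 3.58 and 3.58 on the adipocyte arrays, against 5.64, 5.09 and 5.96 on the SVF arrays (-2.28 ± 0.54, adjusted p = 0.0081). C3 (-1.30 ± 0.40, adjusted p = 0.0275; 0.0551 with the replicate block and up to 0.105 without adipocyte replicate 1 or 2 or SVF replicate 1, 2 or 3) was lower too. Of 20 cytokine and chemokine genes 2 were lower, against 6.89% of all genes, with a median of -0.65. The lower count was 5 under median scaling, and the median was -1.36 without adipocyte replicate 3. The 2 were Il33, an alarmin of stromal cells (-2.82 ± 0.76, adjusted p = 0.0149, up to 0.0776 without adipocyte replicate 1 or SVF replicate 2), and Csf1, macrophage growth factor (-1.85 ± 0.45, adjusted p = 0.00869, and 0.0528 without adipocyte replicate 1). Tnf was at -0.90 ± 1.07, adjusted p = 0.577, and its adipocyte arrays read -3.15, -2.14 and 0.00.

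Genes of the mesothelial covering did not pass the test. None of 15 mesothelial genes was called (median -0.74), while 1 was lower with only the epididymal arrays. The groups overlapped for 12 of them, and over all 19291 genes they did not overlap for 9484. Msln, the surface protein mesothelin, had 3.06, 3.05 and 3.98 on the adipocyte arrays, against 2.18, 3.58 and 5.16 on the SVF arrays (-0.28 ± 2.47, adjusted p = 0.95). Upk3b had -0.44, 1.0 and 1.23 on the adipocyte arrays, against 0.85, 2.51 and 3.33 on the SVF arrays (-1.63 ± 2.04, adjusted p = 0.598). SVF replicate 3 was the highest and SVF replicate 1 the lowest SVF array for each, and the summed signal of the list was 35.5, 40.1 and 63.6 in adipocytes and 52.3, 80.2 and 154 in SVF. The standard errors of these genes, like those of all genes, come from a spread shared by all depots. Of 15 patterning factors, in a list labelled visceral, 3 were higher, against 18.2% of all genes. Their median was 0.86, or 0.46 without adipocyte replicate 3, 0.05 after quantile normalization and -0.05 in the deposited matrix. Whether the listed factors are specific to visceral fat was not tested. Among the 3 higher genes, Shox2 was well above background on 2 epididymal and 3 inguinal adipocyte arrays. Gata4 was so on 3 and 2 of these arrays, and Hoxc4 on 3 and 3. Gata4, a cardiac and gonadal transcription factor, had 1.53, -1.18 and 0.22 on the adipocyte arrays, against -1.84, -5.04 and -4.64 on the SVF arrays (4.03 ± 0.79, adjusted p = 0.0032). Shox2 (2.81 ± 0.89, adjusted p = 0.0314) lost the call on leaving out single arrays (adjusted p up to 0.165 without adipocyte replicate 1 or SVF replicate 2 or 3) and after normexp correction, and Hoxc4 (2.10 ± 0.73, adjusted p = 0.0486) likewise (up to 0.22 without adipocyte replicate 1 or 3 or SVF replicate 2 or 3) and with the replicate block (0.079). Tcf21, a factor of visceral stroma, had -2.00, -1.75 and -0.99 in adipocytes and 0.82, 0.35 and 1.30 in SVF (-2.40 ± 1.25, adjusted p = 0.172), and its adjusted p was 0.0108 from the epididymal arrays alone and 0.00882 without inguinal SVF replicate 1.

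Endothelial genes were read in both fractions. None of 18 endothelial genes was called (median -0.38; 6 were lower under median scaling), with a summed signal of 636, 563 and 672 in adipocytes, against 768, 709 and 464 in SVF. Pecam1 had 1.26, 2.37 and 1.42 in adipocytes and 2.88, 2.44 and 0.80 in SVF (-0.36 ± 0.50, adjusted p = 0.645), and SVF replicate 3 was the lowest of all 6 arrays. Of 12 mural cell genes 2 were higher, against 18.2% of all genes (median 0.55). Under median scaling 1 was higher and 2 lower (median 0.05). Without adipocyte replicate 3, 1 was called and the median was 0.33, and it was 0.23 after quantile normalization and 0.24 in the deposited matrix. Mcam, an adhesion molecule of pericytes, had 4.71, 4.79 and 4.59 on the adipocyte arrays, against 3.01, 3.20 and 2.30 on the SVF arrays (1.86 ± 0.42, adjusted p = 0.00668), and Cspg4 (NG2) differed by 1.03 ± 0.34 (adjusted p = 0.0368; 0.0694 with the replicate block and up to 0.122 without any 1 of the 6 arrays). Acta2, smooth muscle actin, had 4.48, 5.37 and 6.55 on the adipocyte arrays, against 4.04, 4.20 and 4.48 on the SVF arrays (1.23 ± 0.45, adjusted p = 0.0595), and passed with the replicate block (adjusted p = 0.0339). The summed signal of mural genes was 111, 147 and 218 in adipocytes and 80.6, 102 and 75.7 in SVF. Of 8 Schwann cell genes 2 were higher, against 18.2% of all genes, among them Sox10 (1.65 ± 0.35, adjusted p = 0.00486). The list's median was 0.57, or 0.07 under median scaling. Only 1 of the 2 was called in every fit that left out an array, and 0 were called after normexp correction.

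Of 10 skeletal muscle genes 2 were higher, against 18.2% of all genes: Acta1 and the myosin light chain Myl1. Acta1 had 3.15, 3.49 and 4.24 on the adipocyte arrays, against -1.69, -1.65 and -1.58 on the SVF arrays (5.26 ± 0.93, adjusted p = 0.00206). Myl1 had 2.16, 2.23 and 2.33 on the adipocyte arrays, against -0.85, -0.30 and -1.0 on the SVF arrays (2.96 ± 0.85, adjusted p = 0.0202), with an adjusted p up to 0.0623 without adipocyte replicate 1 or 3 or SVF replicate 1 or 3. Of the other muscle genes, Ckm, Myh4 and Pvalb were well above background on 1 adipocyte array each and on no SVF array. Myh2, Atp2a1, Mylpf, Tnnt3 and Tnnc2 were well above background on all 6 arrays and were not called. The list's median of 1.43 was 0.41 with genes not measured in SVF at their bound, 0.87 after normexp correction and 0.18 in the deposited matrix. The summed signal of muscle genes was 14.8, 17.0 and 25.4 in adipocytes, against 1.61, 1.81 and 1.51 in SVF. Whether muscle RNA takes part in the Acta1 and Myl1 values was not tested. None of 3 erythroid genes was called (median 0.41; -0.08 under median scaling). Of 12 listed genes of the epididymal epithelium 4 could be tested, and Lcn9 (2.02 ± 0.54, adjusted p = 0.0138; up to 0.0728 without adipocyte replicate 1 or 3 or SVF replicate 2) and Adam28 (1.25 ± 0.42, adjusted p = 0.0415; up to 0.156 without adipocyte replicate 1 or 3 or SVF replicate 2 or 3) were called higher, with a median of 1.42, and 0 were called after normexp correction. Of the genes not tested, Lcn5, Lcn8, Adam7 and Ros1 were well above background on none of the 6 arrays. Crisp1 was so on 2 SVF arrays, Cst8 on 2 arrays of each fraction and Cst11 on 1 adipocyte array. Lcn10, above background on all 6 arrays, and Rnase10, on 3 SVF arrays and 1 adipocyte array, were tested and not called. Of 5 testis germ cell genes 2 were higher and 2 lower (median -0.86), and 0 were called after normexp correction: Sycp3 was at least 3.69-fold higher and Tnp2 higher (2.09 ± 0.60, adjusted p = 0.0204; up to 0.107 without adipocyte replicate 1 or 3 or SVF replicate 2 or 3), while Prm2 (-1.90 ± 0.53, adjusted p = 0.0182; up to 0.0657 without adipocyte replicate 2 or SVF replicate 1 or 2) and Tnp1 (-1.43 ± 0.50, adjusted p = 0.0489; 0.0654 with the replicate block and up to 0.183 without adipocyte replicate 1, 2 or 3 or SVF replicate 1 or 2) were lower.

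Several brown-fat genes read highest on a single adipocyte array. Ucp1, the uncoupling protein that makes heat, had -3.35, -1.05 and 4.51 on the adipocyte arrays, against -5.61, -2.29 and -7.58 on the SVF arrays (5.2 ± 1.56, adjusted p = 0.0247). Adipocyte replicate 3 read highest and SVF replicate 3 lowest, Ucp1 was well above background on 1 SVF array, and without adipocyte replicate 3 the difference was 2.96, adjusted p = 0.107. The adjusted p was up to 0.111 without adipocyte replicate 3 or SVF replicate 1 or 3, and the call was also lost with the replicate block (0.0627). Cidea, a droplet protein, had 2.92, 2.45 and 6.46 on the adipocyte arrays, against -1.39, 0.11 and -3.09 on the SVF arrays (5.40 ± 1.01, adjusted p = 0.00261), and without adipocyte replicate 3 it was 4.14, adjusted p = 0.0116. Of 20 brown adipocyte genes 11 were higher and none lower, with a median of 2.28, or 1.98 with 4 genes at their bound. Without adipocyte replicate 3, 6 were called and the median was 1.44. The count was 4 after normexp correction, 6 in the deposited matrix and 7 under median scaling, where 1 gene was lower.

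Within the list, Cox8b, a muscle and brown fat form of a cytochrome oxidase subunit, had 1.82, 1.49 and 4.35 on the adipocyte arrays, against -0.82, -0.48 and -2.17 on the SVF arrays (3.71 ± 0.72, adjusted p = 0.00306). Kcnk3, a potassium channel, had 0.04, 0.44 and 0.11 on the adipocyte arrays, against -1.95, -1.91 and -2.65 on the SVF arrays (2.36 ± 0.41, adjusted p = 0.00186). Fabp3, a fatty acid carrier, had -0.58, -1.39 and 2.90 in adipocytes and -1.47, -1.52 and -1.1 in SVF (1.67 ± 0.98, adjusted p = 0.226). Cox8b and Fabp3 stood out on adipocyte replicate 3, while Kcnk3 was even across adipocyte arrays. Otop1, a proton channel, was at least 4.4-fold higher (adjusted p = 0.00201; 0.156 after normexp correction) and Lhx8, a transcription factor, was well above background on 2 adipocyte arrays and no SVF array (adjusted p = 0.0383; up to 0.154 without adipocyte replicate 1, 2 or 3 or SVF replicate 1 or 2). Prdm16, a regulator of the brown program, was at -0.74 ± 0.35, adjusted p = 0.13 and Zic1 at 2.24 ± 1.07, adjusted p = 0.138. The summed signal of the 20 genes was 24.9, 20.9 and 166 in adipocytes, against 11, 11.9 and 12.6 in SVF, so replicate 3 stood apart among adipocytes. The same array's mature adipocyte sum was 4332, against 3528 and 3379 on the other adipocyte arrays.

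**Figure D4:**
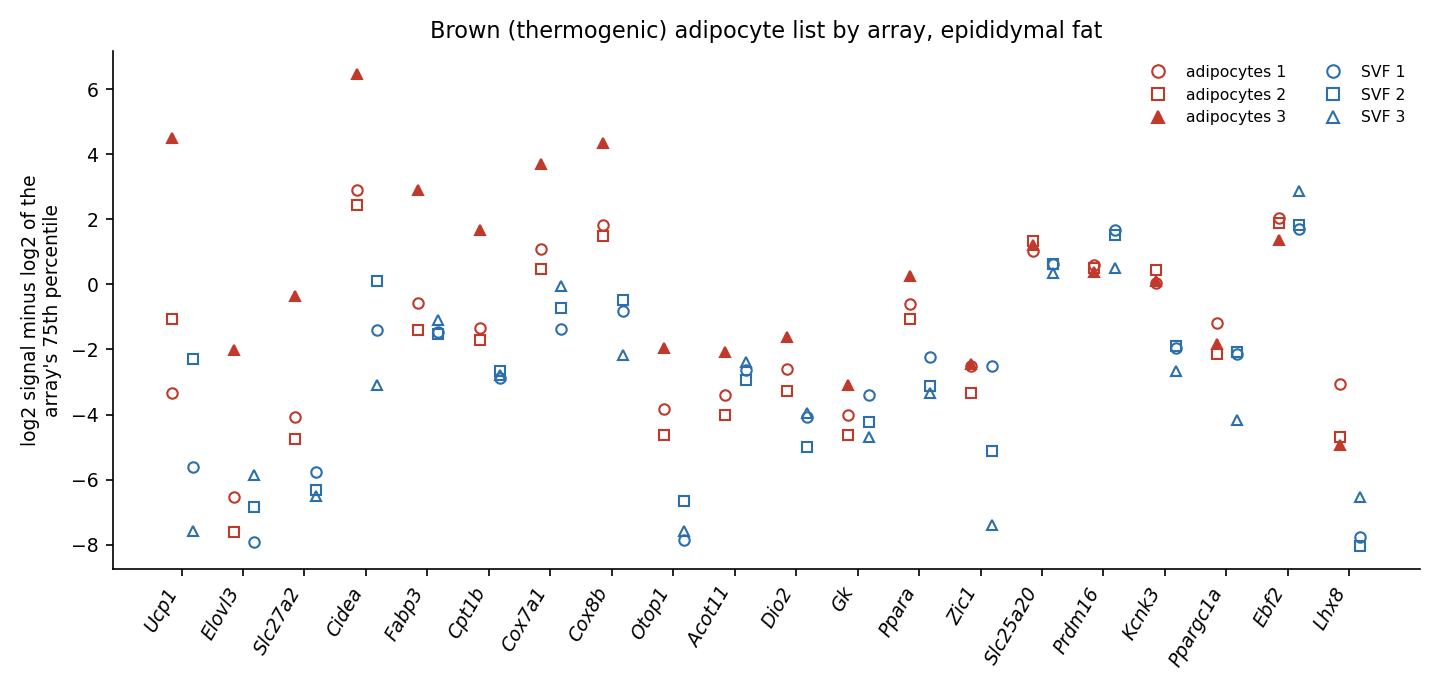
Log2 signal relative to the array's 75th percentile of 20 brown adipocyte genes on the 6 epididymal arrays, with filled triangles for adipocyte replicate 3. Ucp1, Cidea, Cox8b, Elovl3 and Fabp3 lie highest on that array (4.51, 6.46, 4.35, -2.02 and 2.90).

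Against the other white depot, few fraction differences differed. The interaction of fraction with depot, epididymal minus inguinal, was called for 15 genes (0.0778%), 12 higher and 3 lower. Pou1f1, the pituitary transcription factor, had -2.62, -2.96 and -3.17 on the epididymal adipocyte arrays, with no SVF array well above background, and was at least 6.47-fold higher in adipocytes. The interaction was called (adjusted p = 0.00112), but no inguinal array and no epididymal SVF array was well above background, so its size was not measured, and the epididymal difference was not called after normexp correction (0.0848). Slc5a7, the choline transporter, had -2.64, -2.77 and -1.16 in epididymal adipocytes (at least 10.7-fold higher) and was well above background on no SVF array of either depot (interaction adjusted p = 0.0306; 0.0542 without inguinal SVF replicate 1). The other 10 higher genes, named after their values were seen, were Pigr, Pitx1, Cst9, Dpysl5, Sult1b1 and 5 entries with clone or array names (2610027F03Rik, AK034908, AK039499, AK084033 and NAP057956-1), and none of the 12 was well above background on an epididymal SVF array. Tbx1, a T-box transcription factor, had -3.16, -3.88 and -4.08 in adipocytes and -0.49, 0.40 and 0.10 in SVF, a difference of -3.71 against 1.22 in inguinal fat (0.00761). Pard6g (-1.47 against 0.73) and Trib1 (0.31 against 2.76) were the other lower genes. The number of such genes was 7, 632 and 8 without epididymal adipocyte replicates 1, 2 and 3 in turn, 54, 4 and 7 without SVF replicates 1, 2 and 3, 7 and 32 without inguinal adipocyte replicates 1 and 3, and 28 without inguinal SVF replicate 3. After quantile normalization 5 were higher and 13 lower, in the deposited matrix 3 and 12, and under median scaling 13 and 10.

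Against brown fat, 391 genes (2.03%) had a called interaction, 289 higher in the epididymal difference and 102 lower. The brown fractions shared slides, scanner and software, unlike the epididymal ones. Array processing therefore cannot be told apart from the depot in this interaction. Inguinal adipocytes and SVF differed in software version as the epididymal fractions did. Sncg had a difference of 4.86 in epididymal and -1.56 in brown fat (interaction adjusted p = 5.55e-05). Mest, an imprinted hydrolase linked to fat expansion, had 4.62, 5.46 and 5.63 in epididymal adipocytes and 2.65, 2.74 and 3.03 in SVF, and differences of 2.43 and -1.32 (0.00899). Nnat (5.00 and 1.74, 0.0256) and Myh14 (4.99 and 2.33, 0.041) also had the higher difference in epididymal fat. For Klf14 and Prr32 the interaction was called (adjusted p = 0.00194 for each), with no epididymal SVF array and no brown adipocyte array well above background, so its size was not measured. Acta1 had 5.26 and -0.58 (0.0348), beside the muscle values given above. Fndc5 went the other way, with -5.23 and 0.75 (0.0143). The interaction was also called for Hpca (0.00425), Ldhc (0.00422) and Gdpd2 (0.0257), which were well above background on all 3 epididymal SVF arrays and on no brown array, and on 1 epididymal adipocyte array for Hpca and none for the others.

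Of 12 mural cell genes 6 had a called interaction, against 2.03% of all genes. All 6 had a higher epididymal difference, as did 289 of the 391 genes called in this comparison. Acta2 differed between fractions by 1.23 in epididymal and -4.96 in brown fat (interaction adjusted p = 0.000324), Cnn1 by 1.53 and -4.58 (0.00205), Tagln by 0.67 and -3.87 (0.00095), and Myh11 by -0.71 and -4.72 (0.00085). These 4 encode contractile proteins of smooth muscle. Myocd, their transcriptional activator, differed by 0.74 and -4.04 (0.00425), with no brown adipocyte array well above background, and Notch3 by 0.18 and -2.16 (0.00378). The other members of the list, Rgs5, Kcnj8, Abcc9, Cspg4, Mcam and Des, had no called interaction. In the Schwann cell list 4 of 8 genes had one, against the same 2.03% of all genes, Sox10 and Prx among them. In the brown adipocyte list 2 of 20 genes had one, Acot11 (-0.50 and 3.58, 0.0087) and Gk (0.20 and 3.88, 0.0388). The number of interaction genes was 235, 1321 and 190 without epididymal adipocyte replicates 1, 2 and 3 in turn, 184 and 254 without SVF replicates 2 and 3, 193 and 226 without brown adipocyte replicates 1 and 3, and 195, 258 and 190 without brown SVF replicates 1, 2 and 3. The split of 289 higher and 102 lower was 384 and 299 after quantile normalization, 305 and 272 in the deposited matrix, 278 and 1129 under median scaling and 847 and 495 with only the arrays of the depots compared.

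**Figure D5:**
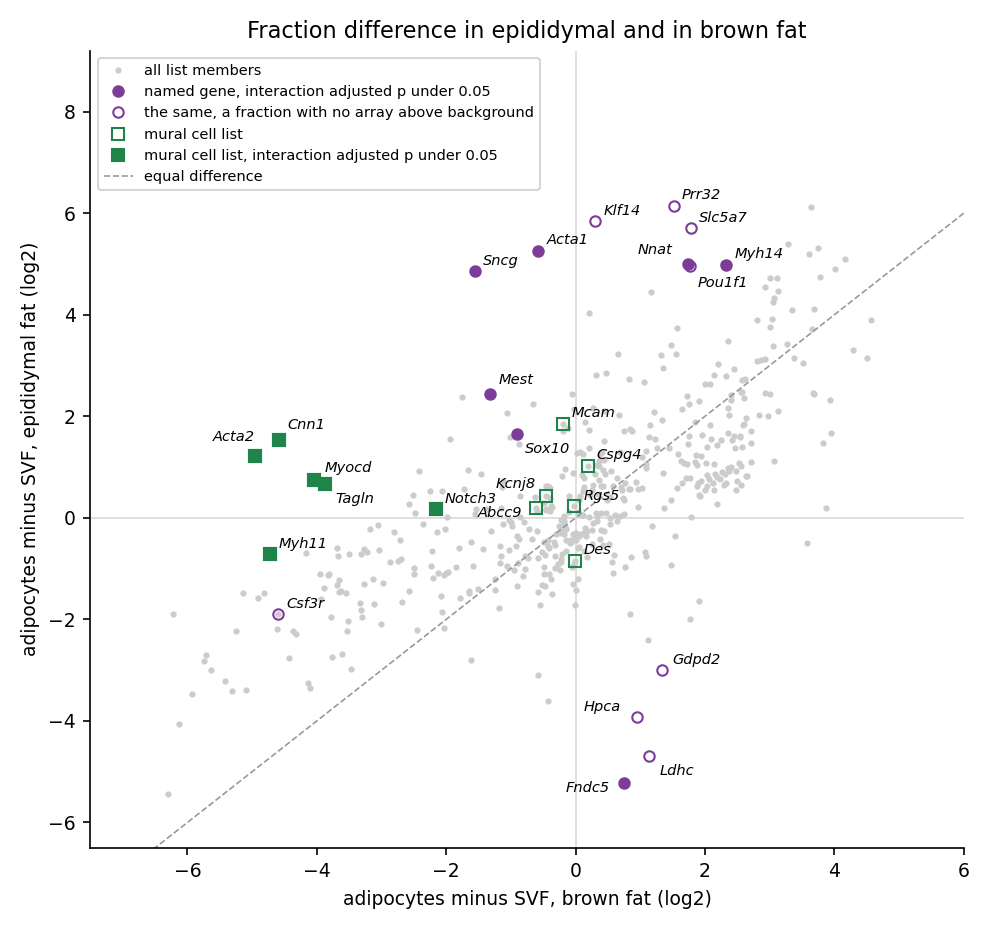
Adipocytes minus SVF difference (log2) in brown fat (horizontal axis) and in epididymal fat (vertical axis) for all list members (grey), genes named by rule with a called interaction (purple, open where a fraction of either depot had no array well above background, so that the position is not an exact size) and the mural cell list (green squares, filled where the interaction was called), with a dashed line at equal differences. Acta2, Cnn1, Myh11, Tagln and Myocd lie far left of the line (Acta2 at 1.23 and -4.96), and Fndc5 far below it (-5.23 and 0.75).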

How the data were processed

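RNA of 6 groups (3 depots, 2 fractions each, 3 arrays per group) was read on single-colour Agilent mouse arrays with 43379 spots that were not controls. Per the file headers, the deposited intensity values (processed signal) are spot brightness that Feature Extraction background-subtracted and detrended within each array. The deposited matrix holds log2 values of the same arrays, ranked like the processed signals and with near-equal column medians. Its scaling step is not given in the sources used here, and its columns matched arrays of the same group but often another replicate number, so it was used by group only, as an alternative.

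Outlier-flagged spots were left out, and signals were divided by their array's 75th percentile and taken to log2. A probe was tested if Feature Extraction scored it well above background throughout any of the 6 groups (28595 of 41174 probes), and a gene took its brightest such probe. RefSeq (GRCm38.p6) named 22951 probes through their accession, 6659 through a symbol and 3109 through an older name, while 8455 carry the name of the array design. limma 3.58.1 (R 4.3.3, lmFit and eBayes, two-sided, Benjamini-Hochberg over 19291 genes) was fitted to all 18 arrays with a mean per group, which gives 12 residual degrees of freedom, and was tested on simulated data. Summaries and figures used Python 3.11.15, numpy 2.4.6, pandas 2.3.3 and matplotlib 3.10.9. The labels call the arrays biological replicates. The p-values set each difference against the spread between arrays within groups, shared over all 6 groups. Same-numbered epididymal arrays deviated together (correlations of 0.43, 0.48 and 0.14), so the fit with the replicate number as a block is given where it changes a call.

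Genes named by rule (139) were, per direction, the 12 called genes with the widest gap between groups, the 6 with the largest lower bounds, up to 6 passing both depot interactions, up to 5 called members of each of 32 lists, and 18 genes followed throughout. The gap ranking took only genes well above background on some array of the lower group, and the ranking by lower bounds took the others. Members and lists were chosen with earlier results of these data known, the lists overlap, and other list members with values were chosen after their values were seen. Alternatives covered scaling, background correction, filters, probe choice, slide, scan day, blocks and arrays left out. No list was tested. Some called list members are counted but not reported here by name.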

Additional observations from a re-analysis of the deposited data

Results flagged for a closer look

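Some genes named by rule had an adipocytes minus SVF difference in epididymal fat that differed from that of another depot, each tested as an interaction with limma and adjusted over all genes. Against brown fat, the epididymal difference was higher (log2) by 6.42 for Sncg (adjusted p = 5.55e-05), by 6.18 for the smooth muscle actin gene Acta2 (0.000324), by 5.85 for the skeletal muscle actin gene Acta1 (0.0348), by 5.54 for Klf14 (0.00194), by 4.63 for Prr32 (0.00194), by 3.75 for Mest (0.00899), by 3.26 for Nnat (0.0256) and by 2.65 for Myh14 (0.041). It was also higher by 2.56 for the Schwann cell factor Sox10 (0.0161), and by 2.70 for the granulocyte receptor gene Csf3r (0.0368), which was lower in adipocytes than in SVF in epididymal fat (-1.90) and in brown fat (-4.60).

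The epididymal difference was below the brown one by -5.98 for Fndc5 (0.0143), -5.82 for Ldhc (0.00422), -4.88 for Hpca (0.00425) and -4.34 for Gdpd2 (0.0257). Both other depots differed for 2 genes: Pou1f1 was higher by 4.66 than in inguinal fat (0.00112) and by 3.19 than in brown fat (0.00329), and Slc5a7 by 4.07 (0.0306) and 3.92 (0.00815). Without inguinal SVF replicate 1 the inguinal values were 4.28 (0.00114) for Pou1f1 and 3.62 (0.0542) for Slc5a7. The comparisons share the epididymal arrays. In brown fat alone both fractions shared slides, scanner and software, so array processing cannot be told apart from the depot in the brown comparison. No epididymal SVF array was well above background for Klf14, Prr32, Pou1f1 and Slc5a7, no epididymal adipocyte array for Ldhc and Gdpd2, and 1 for Hpca. For these 7 genes no brown adipocyte array was well above background either, nor for Csf3r, so their sizes are no exact differences.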

How the results depend on the processing

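With 3 arrays a group and no slide, scan day or software version common to both epididymal fractions, array processing cannot be told apart from the fraction, and dim genes rest on the background step. The total of 4838 called genes in the epididymal comparison was 104 without adipocyte replicates 1 and 3, 1613 after normexp (1568 of them among the 4838), 2530 when a probe had to be above background on all 18 arrays, and 2333 to 5232 on leaving out 1 array. The planned normexp on mean signals was not run because 12 array files lack that column, and the median signal was used, chosen after seeing the data. The total of 15 genes whose difference differed from inguinal fat was 7 with an intensity trend and robust variances, 8 without adipocyte replicate 3 and inguinal SVF replicate 1, 23 under median scaling, 2 after normexp and 1 with the arrays of the depots compared. It was 0 without adipocyte replicates 1 and 3 and 0 with probes above background on all 18 arrays, and 4 to 632 without 1 array. The total of 391 genes for brown fat was 73 without adipocyte replicates 1 and 3, 1407 under median scaling, 683 after quantile normalization, 226 with no filter, 53 after normexp, 191 with probes above background on all 18 arrays, 1342 with the arrays of the depots compared and 184 to 1321 without 1 array. With the replicate block the counts were 4872 for the fractions, 209 for inguinal and 931 for brown fat, and it changed no call of a gene named in the text other than those given above; same-numbered arrays correlated at -0.14, 0.06 and -0.23 in inguinal and at -0.12, -0.05 and 0.39 in brown fat. Signs turned for 2 uncalled genes: Pecam1 at 0.33 without adipocyte replicates 1 and 3 and -0.98 to 0.063 without 1 array, and Msln at -1.01 to 0.48. Of 139 named genes, calls were lost by 39 after normexp, 13 in the deposited matrix, 12 under median scaling, 11 with slide and 8 with scan day as a random block, 5 after quantile normalization and 108 without adipocyte replicates 1 and 3. Those lost after normexp and not named so above include Bub1b, Cdk1, Cd4, Csf3r, Gzma, Ncr1, Cox4i1, Cox5b, Sox10, Pou1f1 and Sycp3.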
